A study of Mus musculus with 36 samples.

Results

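The interferon pathway transcription factors Irf7, Irf1, Irf3, Irf5, Irf8, Irf9 and Stat2 were followed in mouse lung after instillation of titanium dioxide nanoparticles. They were the 7 members among 23256 genes tested, chosen by name, and each was read from the array probe of that gene with the highest mean intensity. The mice were female C57BL/6 animals, 5 to 7 weeks old per the labels, and every mouse received a single intratracheal instillation of 40 µl. The suspension held 18, 54 or 162 µg of tube-shaped TiO2 nanoparticles, or 0 µg in the controls. Lungs were taken 24 h later (day 1) or at day 28, and RNA came from random sections of the tissue. At day 1 the groups held 3 mice at 18 µg, 3 at 54 µg, 4 at 162 µg and 4 controls, and at day 28 they held 4, 4, 4 and 3. Each of the 36 two-colour arrays set lung RNA in Cy5 against a common reference RNA of 11 mouse cell lines in Cy3, so a level is given as log2(lung/reference). A value of 0 means equal signal in lung and reference after normalization of the dyes within each array. Levels of different genes are not set against each other.

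Interferons are secreted alarm signals. Pattern sensors that meet foreign nucleic acid or debris switch on Irf3 and Irf7, latent factors that turn on the genes of type I interferons (Irf5 acts in the same way downstream of Toll-like receptors). Interferon bound to its receptor then activates STAT proteins, and Stat2 joins Irf9 in the complex ISGF3, which turns on a large set of target genes. Irf7, Stat2 and Irf9 are themselves among those targets, whereas Irf3 is made constantly and is controlled mainly by phosphorylation. Irf1 is induced chiefly by interferon gamma, and Irf8 is a lineage factor of monocytes, macrophages and dendritic cells.

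All 7 probes were well above background in both dyes on 36 of 36 arrays. Irf7 was the dimmest, with a mean log2 intensity of 8.87, against 9.52 to 12.82 for the other factors. Its log2 Cy5 was 7.19 in control replicate 2 of day 1. How far low signal affects its ratios was not tested. Irf1 had a second probe, which was above background in Cy5 on 0 of 36 arrays and was not used. Over whole arrays, 48.6% to 62.2% of probes were well above background in Cy5. The 10 defining transcripts of lung epithelium and endothelium checked the labelled tissue: all were above background, and their mean log2(lung/reference) was 5.26 to 6.22 in the 29 mice.

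Some libraries stood apart. On 12 of 36 arrays the mean log2 Cy5 intensity over 12 skeletal muscle transcripts was 9.76 to 14.39, against 6.63 to 7.30 on the other 24. At day 1 the mice with such an array were 1 of 3 at 18 µg, 1 of 3 at 54 µg, 1 of 4 at 162 µg and 4 of 4 controls. At day 28 they were 1 of 4 at 18 µg, 3 of 4 at 54 µg, 0 of 4 at 162 µg and 0 of 3 controls. Control replicate 1 of day 1 was on 2 arrays, of which 1 stood apart. On that array Irf7 read -1.27, against -1.48 on its other array, while Irf1 read 0.77 against 1.40, Irf8 2.01 against 2.58, Irf9 0.77 against 1.28 and Stat2 0.46 against 0.87. In that mouse 5 of the 7 factors were lower on the array that stood apart, and Irf7 and Irf5 were higher.

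A second irregularity bears directly on Irf7. The mouse given here as 162 µg day 28 replicate 1 has titles that say day 1 and a time label that says day 28, and it was on 2 arrays, on slides 1 and 5. Its slide 1 array read -0.86 for Irf7 and its slide 5 array read 2.15, a difference of 3.01. In the 6 other mice on 2 arrays the slide 5 array minus the slide 1 array was -0.49 to 0.72 for Irf7. Stat2 differed by 1.07 between the 2 arrays of this mouse (1.04 and 2.10), against -0.41 to 0.13 in the 6 others, and Irf9 by 0.50 (1.52 and 2.03), against -0.51 to -0.10. Irf1 (1.82 and 1.85) and Irf3 (0.93 and 0.91) read nearly alike on both arrays. Over all 23256 genes the pair correlated at r = 0.967, within the range of the other pairs (0.818 to 0.968), and genes are not independent replicates. Over 22 type I interferon target genes the slide 5 array was higher in 22 of 22, with a median difference of 1.56, against medians of -0.25 to 0.27 in the 6 other mice. What set these arrays apart was not tested. The mean of both arrays stands for this mouse below. The factor calls against control at day 28 and the day difference at 162 µg are also given with each array alone and without the mouse. The group ranking and the correlations use the mean only.

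**Figure D1:**
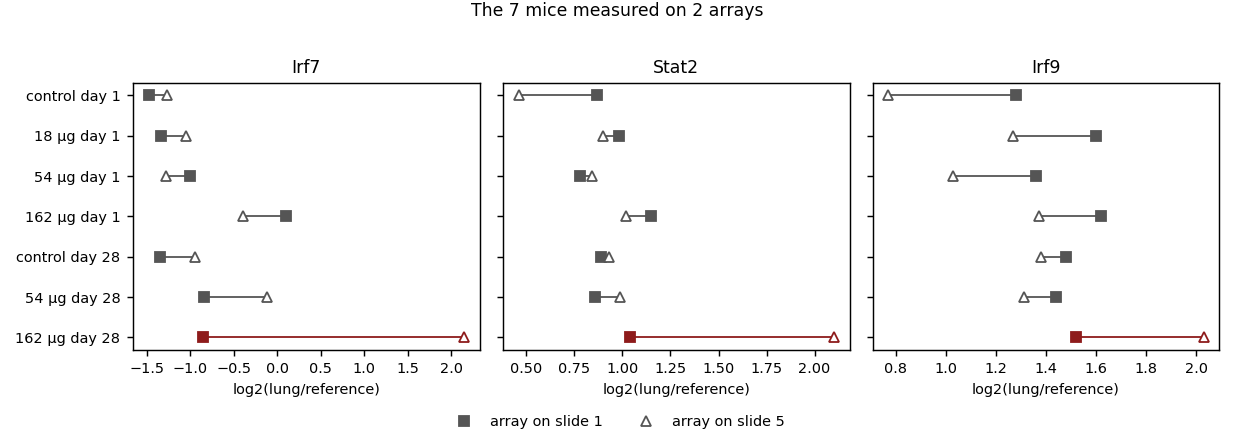
Level of Irf7, Stat2 and Irf9, as log2(lung/reference), on both arrays of the 7 mice that were on 2 arrays, with squares for slide 1 and triangles for slide 5. The mouse at 162 µg and day 28 spans -0.86 to 2.15 for Irf7, while the 6 other mice differ by at most 0.72.

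Mice given 162 µg were set against controls at day 28 to see which factors differed long after the highest dose. Irf7 and Stat2 rose, and the other 5 did not pass the test. Irf7, the factor that amplifies type I interferon production, read 0.64, 1.68, 1.57 and 0.97 in the 4 mice at 162 µg, against -1.15, -1.0 and -1.15 in the 3 controls. Every treated mouse lay above every control. After normalization the group mean was below the reference RNA in controls and above it at 162 µg. The means were 1.22 ± 0.49 at 162 µg and -1.10 ± 0.08 in controls (SD, n = 4 and 3). Irf7 therefore rose 4.99-fold, with a log2 change of 2.32 (SE 0.32) and an adjusted p of 0.000345 by limma, with Benjamini-Hochberg adjustment over all genes tested. By p it ranked 11 of 23256. Of all genes tested, 0.632% passed in this comparison (147, of which 145 rose), against 2 of the 7 factors. In bulk lung, more RNA per cell and more cells that carry the RNA cannot be told apart.

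Stat2, the subunit of ISGF3 that carries its main activation domain, read 1.57, 1.97, 2.15 and 1.97 at 162 µg and day 28, against 0.91, 0.61 and 0.89 in controls. The groups did not overlap. Stat2 rose 2.16-fold (1.11 on the log2 scale, SE 0.18, adjusted p = 0.0018). Irf9, the DNA-binding subunit of the same complex, read 1.78, 2.07, 2.02 and 2.07, against 1.43, 1.14 and 1.43. Its groups did not overlap either, but with a log2 change of 0.65 (SE 0.16) it did not pass (adjusted p = 0.0566). With Irf7, Stat2 and Irf9, 3 of the 7 factors had groups that did not overlap, against 9.47% of all genes tested.

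The calls at day 28 depended on which array represented the mouse with conflicting labels. With its slide 5 array alone the log2 change was 2.69 for Irf7 (adjusted p = 3.68e-05), 1.24 for Stat2 (0.000178) and 0.71 for Irf9 (0.0176), so 3 factors passed. With its slide 1 array alone the changes were 1.94 (adjusted p = 0.0569), 0.98 (0.0598) and 0.59 (0.224), and 0 of 7 passed. Without the mouse they were 2.51 (adjusted p = 0.000314), 1.23 (0.00133) and 0.72 (0.0547), and with the mouse counted as day 1 they were 2.51 (0.000859), 1.23 (0.00233) and 0.72 (0.0799). Arrays of both groups were on 4 slides, of which slides 1 and 5 held the same pair of mice. Within these slides the difference between 162 µg and control was 0.48, 2.57, 2.13 and 3.10 for Irf7 on slides 1, 3, 4 and 5, and 0.15, 1.54, 1.08 and 1.17 for Stat2, so the lowest value of both came from slide 1. With the slide as a block both kept their calls.

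**Figure D2:**
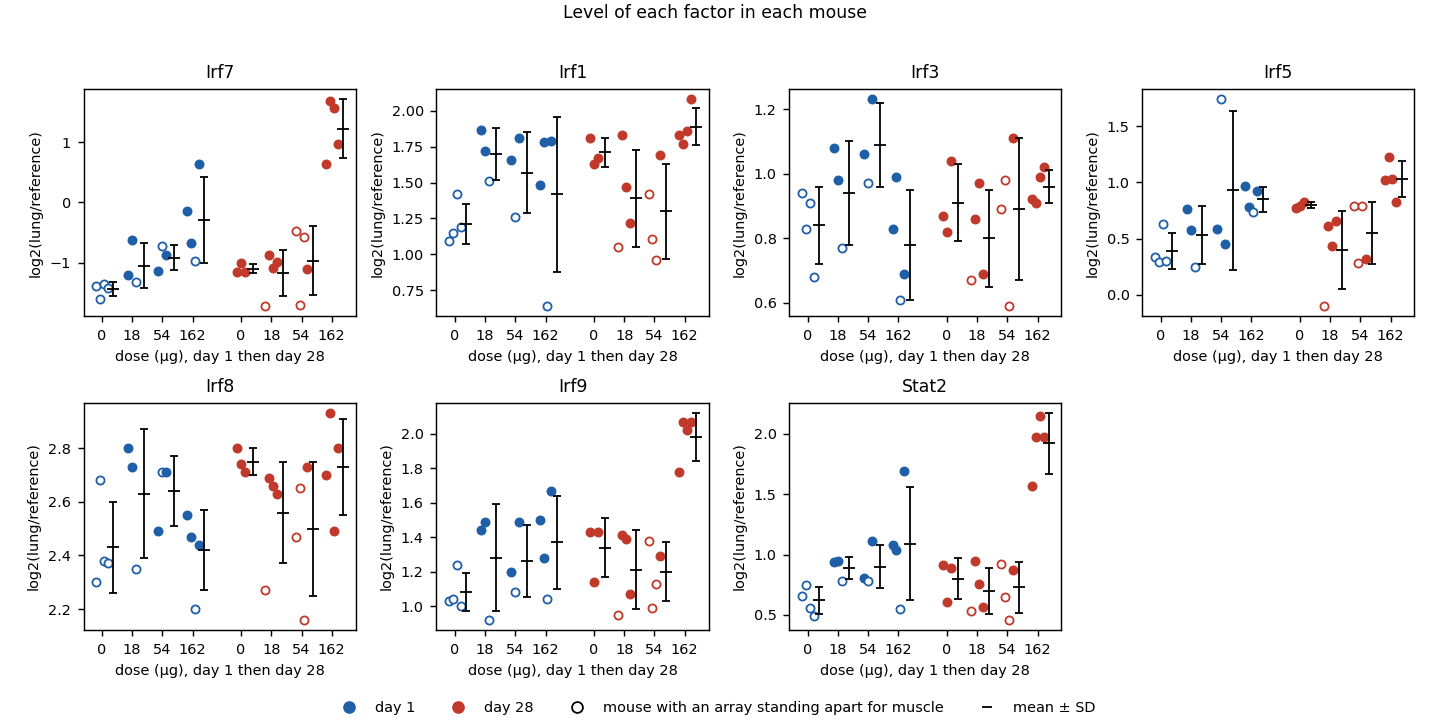
Level of each factor in each of the 29 mice as log2(lung/reference), by dose at day 1 (blue) and day 28 (red), with the mean ± SD beside each group and open circles for mice with an array standing apart for muscle. At 162 µg and day 28 the 4 mice read 0.64 to 1.68 for Irf7, above the other 25 mice, the highest of which read 0.63. The 0.64 is the mean of the 2 arrays of the mouse with conflicting labels, which read -0.86 and 2.15.

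The promoters of the factors that rose are shown to let the interferon elements be seen on the sequence. RefSeq windows (GRCm38.p6) from 250 bases before to 50 after a start that the promoter table gives were at hand for all 7 factors, 10 windows in all, and are printed on the strand of the gene. For Irf7 and Irf5 that start lies inside the gene as the gene table bounds it. The bases before the outermost start were therefore searched only in part for Irf7 and not at all for Irf5. All windows were searched on both strands for GAAANNGAAA, the core of the element that ISGF3 and the IRF proteins bind. In the same way they were searched for TTCNNNGAA, the core of the element that STAT dimers bind. In capitals are the matches. The Irf7 window (chr7:141266375-141266674, minus strand) held neither, and the Stat2 window (chr10:128270248-128270547, plus strand) held GAAANNGAAA once, on the opposite strand at bases -222 to -213 from the start.
Irf7: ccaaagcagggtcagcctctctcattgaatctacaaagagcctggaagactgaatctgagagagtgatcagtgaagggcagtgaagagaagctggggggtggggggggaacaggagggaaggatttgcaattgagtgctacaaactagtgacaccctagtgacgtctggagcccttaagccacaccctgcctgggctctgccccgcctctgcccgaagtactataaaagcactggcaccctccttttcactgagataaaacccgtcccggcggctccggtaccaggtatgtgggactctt
Stat2: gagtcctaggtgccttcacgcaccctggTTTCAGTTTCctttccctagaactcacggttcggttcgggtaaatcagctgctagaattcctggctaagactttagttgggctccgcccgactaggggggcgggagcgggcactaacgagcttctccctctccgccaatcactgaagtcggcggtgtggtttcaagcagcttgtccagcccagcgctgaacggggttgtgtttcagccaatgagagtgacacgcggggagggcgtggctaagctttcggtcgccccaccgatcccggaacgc
The 10-base core was in 3.44% of all 32851 windows. Irf1, the gamma-responsive member, held TTCNNNGAA once at bases -90 to -82 (ttccccgaa; window chr11:53769764-53770063), and 1 of the 2 Irf8 windows held it at 2 places, against 8.3% of all windows with at least 1. The windows of Irf3, Irf5 and Irf9 held neither. A match describes the letters and not a bound site, and these windows are short.

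The remaining factors moved little at 162 µg and day 28. Irf3, the constantly made trigger of the pathway, read 0.92, 0.91, 0.99 and 1.02, against 0.87, 0.82 and 1.04 in controls (log2 change 0.05, 95% interval -0.19 to 0.29, adjusted p = 1). Irf8, the myeloid lineage factor, read 2.70, 2.93, 2.49 and 2.80, against 2.80, 2.74 and 2.71 (-0.02, -0.31 to 0.27, adjusted p = 1). Both intervals ended far below the change of Irf7. Irf1 had a log2 change of 0.18 (-0.28 to 0.64) and Irf5 one of 0.23 (-0.23 to 0.69), and neither passed.

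The same contrast at day 1 shows the factors 24 h after the highest dose. Irf7 alone of the 7 passed the test, as 1 of 7 against 1.7% of all genes (395, of which 350 rose). It read -0.14, -0.68, -0.98 and 0.63 at 162 µg, against -1.38, -1.61, -1.35 and -1.42 in controls, so the treated mice ranged widely but all lay above the controls. It rose 2.21-fold (1.15 on the log2 scale, SE 0.29, adjusted p = 0.0438). The groups of 2 of the 7 factors, Irf7 and Irf5, did not overlap, against 5.95% of all genes. Irf5, which acts below Toll-like receptors, read 0.97, 0.78, 0.74 and 0.92, against 0.34, 0.29, 0.63 and 0.30, and did not pass (0.46, SE 0.21, adjusted p = 0.339), but without the arrays standing apart it did (0.72, adjusted p = 0.0248), with 1 control mouse left.

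At the same dose and day Stat2 read 1.08, 1.04, 0.55 and 1.69, against 0.66, 0.75, 0.56 and 0.49, and did not pass (0.47, SE 0.17, adjusted p = 0.193). Its lowest treated mouse, replicate 3, was the one with an array standing apart, and without it Stat2 passed (0.65, adjusted p = 0.018). All 4 controls had such an array, so this run kept arrays standing apart in the controls only. In 15 other settings Stat2 passed in 1, with array quality weights. Replicate 3 was also the lowest of its group for Irf7 (-0.98), Irf1 (0.64), Irf3 (0.61), Irf5 (0.74), Irf8 (2.20) and Irf9 (1.04). Irf9 (0.29), Irf1 (0.21), Irf3 (-0.06) and Irf8 (-0.02) did not pass (adjusted p = 0.403 to 0.978), and median centring turned the signs of Irf3 (0.21) and Irf8 (0.18).

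The Irf7 call at day 1 was close to the threshold. Its log2 change was positive under each alternative run, between 0.84 and 1.48, but it passed only in some. It did not pass without 162 µg replicate 4, the highest mouse (0.84, adjusted p = 0.185), without replicate 1 (1.1, 0.138) or without replicate 2 (1.28, 0.0526), nor without any 1 of the 4 controls (1.09 to 1.18, adjusted p = 0.0693 to 0.107). It also did not pass without the arrays standing apart (1.42, adjusted p = 0.0951), which leaves only control replicate 1, whose spread is taken from the other groups. The controls all had an array standing apart, and over 11 skeletal muscle markers the median log2 change at 162 µg was -2.55 (0 of 11 called). Within the 5 slides with both groups the difference was 0.37 to 2.05 for Irf7, above 0 on 5 of 5, and -0.01 to 1.20 for Stat2, above 0 on 4 of 5. Slides 1 and 5 held the same pair of mice, so the slides are not all independent.

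The rise of Irf7 was larger at day 28 than at day 1, but the difference did not pass the test over all genes. The day 28 change at 162 µg minus the day 1 change was 1.17 for Irf7 (SE 0.43, unadjusted p = 0.0125) and 0.64 for Stat2 (SE 0.25, unadjusted p = 0.0171), with an adjusted p of 1 for both. In this test limma called 0 of the 7 factors (2 at an unadjusted p under 0.05) and 0.0258% of all genes. For the mouse with conflicting labels, the slide 1 array alone gave 0.79 for Irf7 and 0.5 for Stat2. Its slide 5 array alone gave 1.55 and 0.77, and leaving the mouse out gave 1.36 and 0.75. None of these passed.

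**Figure D3:**
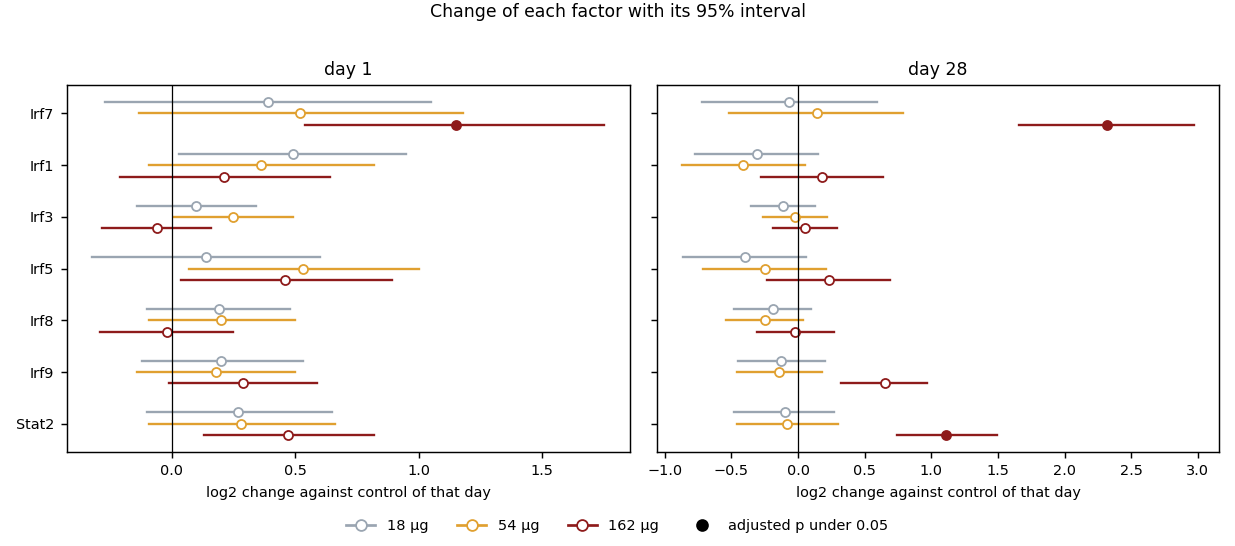
Log2 change of each factor against the control group of its day, with the 95% interval from limma, for 18, 54 and 162 µg at day 1 (left) and day 28 (right). Filled points passed at an adjusted p under 0.05: Irf7 at 162 µg on both days (1.15 and 2.32) and Stat2 at 162 µg on day 28 (1.11).

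The lower doses moved none of the 7 factors past the test. At day 1 the largest changes were those of Irf1 at 18 µg (0.49, adjusted p = 0.912) and Irf5 at 54 µg (0.53, adjusted p = 0.613). The second of these leans on 1 mouse of 3, replicate 2, which read 1.74 beside 0.59 and 0.45 and had an array standing apart. Irf7 read -1.20, -0.63 and -1.32 at 18 µg and -1.14, -0.72 and -0.88 at 54 µg, against -1.61 to -1.35 in the 4 controls. Neither dose passed by limma (0.39 and 0.52, adjusted p = 0.912 and 0.718). On single arrays both doses overlapped the controls. Replicate 1 at 18 µg read -1.34 on slide 1 and replicate 1 at 54 µg read -1.28 on slide 5, against -1.27 for control replicate 1 on slide 5. limma called 0 of 7 factors at 18 µg (1 at an unadjusted p under 0.05), with 0% of all genes, and 0 of 7 at 54 µg (2 unadjusted), with 0.0516% of all genes. All 7 changes were above 0 at both doses, where 1 of 3 mice at each dose and 4 of 4 controls had an array standing apart. Without these arrays Irf3 at 18 µg was -0.07.

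At day 28 Irf7 read -1.72, -0.87, -1.09 and -0.99 at 18 µg and -0.48, -1.71, -0.57 and -1.11 at 54 µg, on both sides of the controls (-1.15 to -1.0). Its log2 changes were -0.07 (95% interval -0.72 to 0.59) and 0.14 (-0.52 to 0.79). limma called 0 of 7 factors at either dose (0 at an unadjusted p under 0.05), with 0% of all genes at both. The medians over the 7 factors were -0.13 and -0.14, against -0.02 over all genes at both doses. In these groups 1 of 4 mice at 18 µg, 3 of 4 at 54 µg and 0 of 3 controls had an array standing apart, and with the tissue scores as covariates the change at 54 µg was 0 for Irf1, 0.08 for Irf9 and 0.16 for Stat2. The day 28 change minus the day 1 change called 0 of 7 at 18 µg (1 unadjusted) and 0 of 7 at 54 µg (3 unadjusted), with 0% of all genes at both doses.

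Set against 54 µg, the dose of 162 µg at day 28 moved 3 of the 7 factors, against 1.02% of all genes. Irf7 rose 4.54-fold (log2 change 2.18, SE 0.29, adjusted p = 0.000288), Stat2 2.28-fold (1.19, SE 0.17, adjusted p = 0.000542) and Irf9 1.73-fold (0.79, SE 0.15, adjusted p = 0.00496). Irf9 read 1.78 to 2.07 in the 4 mice at 162 µg, against 0.99 to 1.38 at 54 µg. Irf1 (0.59, adjusted p = 0.241) and Irf5 (0.48, adjusted p = 0.345) did not pass. Arrays standing apart were those of 0 of 4 mice at 162 µg and 3 of 4 at 54 µg, and the median log2 change was -3.82 over 11 skeletal muscle markers (8 lower at an unadjusted p under 0.05) and -3.67 over 7 squamous epithelium markers. Without these arrays, which leaves 1 mouse at 54 µg, Irf7 kept its call, while Stat2 (1.05, adjusted p = 0.142) and Irf9 (0.69, adjusted p = 0.249) did not. All 3 passed with either array of the mouse with conflicting labels alone (adjusted p up to 0.0361). At day 1 the same pair of doses gave 0 of 7 by limma (1 at an unadjusted p under 0.05, Irf3, -0.31), with 0.0043% of all genes.

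The controls of the 2 days gave the size of a difference with no particles. Control at day 28 against control at day 1 had 0 of 7 calls by limma (2 at an unadjusted p under 0.05, Irf1 and Irf8) and 0% of all genes. All 7 factors were nonetheless higher at day 28, by 0.07 (Irf3) to 0.50 (Irf1), with a median of 0.32 against 0.02 over all genes. Arrays standing apart were those of 0 of 3 mice at day 28 and 4 of 4 at day 1, and without them Irf3 (-0.18) and Stat2 (-0.06) were lower at day 28. Because these groups are also the baselines of the dose comparisons, the dose changes at day 1 and at day 28 are not measured from the same level.

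Ranked over the 8 groups, Irf7 was highest at 162 µg and day 28 (1.22 ± 0.49) and next at 162 µg and day 1 (-0.29 ± 0.71), with 0.64 as the lowest mouse of the one and 0.63 as the highest of the other. The 0.64 is the mean of the 2 arrays of the mouse with conflicting labels, which read -0.86 and 2.15. With its slide 1 array alone the 2 groups would overlap. The other groups followed at -0.92 ± 0.21 (54 µg, day 1), -0.97 ± 0.57 (54 µg, day 28), -1.05 ± 0.37 (18 µg, day 1), -1.10 ± 0.08 (control, day 28), -1.17 ± 0.38 (18 µg, day 28) and -1.44 ± 0.12 (control, day 1). From 162 µg at day 1 downward, the values of neighbouring groups overlapped. The group at 162 µg and day 28 also ranked first for Irf1, Irf5, Irf9 and Stat2, and second for Irf3 and Irf8. Control at day 1 ranked last for Irf7, Irf1, Irf5, Irf9 and Stat2, whereas 162 µg at day 1 ranked last for Irf3 (0.78 ± 0.17) and Irf8 (2.42 ± 0.15).

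The targets of the pathway moved with the factors. Of 22 type I interferon targets tested, 15 rose and 0 fell at 162 µg and day 28 (median log2 change 1.20, against 0 over all genes). Oas1a, an oligoadenylate synthetase that arms the antiviral nuclease RNase L, rose by 2.58 (SE 0.31, adjusted p = 6.57e-05) and its relative Oas2 by 1.92 (SE 0.27, adjusted p = 0.000363). At day 1, 5 of 22 rose and 0 fell (median 0.67 against 0.01), led by Rsad2, which encodes the antiviral enzyme viperin, and Zbp1, a sensor of nucleic acids (1.20 each, adjusted p = 0.00409 and 0.00449). With the slide 1 array alone for the mouse with conflicting labels, 3 of 22 rose at day 28 (median 1.04), and with its slide 5 array alone 16 did (median 1.35). Without control replicate 1 the count at day 28 was 10, the lowest with 1 mouse left out. At day 1 it was 17 without 162 µg replicate 3, a run that kept arrays standing apart in the controls only. It was 3 without control replicate 3, and 2 without control replicate 1 or 4 or without 162 µg replicate 1, 2 or 4.

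Of 18 interferon gamma targets, 7 rose and 0 fell at 162 µg and day 28 (median 0.56), led by the T cell attractants Cxcl10 (2.24, SE 0.37, adjusted p = 0.0018) and Cxcl9 (1.43, SE 0.34, adjusted p = 0.0496). At day 1, 1 of 18 rose, Cxcl10 (2.30, SE 0.34, adjusted p = 0.000316), and 0 fell (median 0.42). With the slide 1 array alone, 1 of 18 rose at day 28, and without 1 mouse 2 (control replicate 2) to 5 did. Without 162 µg replicate 3, 7 of 18 rose at day 1, in a run that kept arrays standing apart in the controls only. Against 54 µg at day 28, 19 of 22 type I targets rose, led by Oas1a (2.31) and Isg15, a ubiquitin-like modifier (2.04, adjusted p = 0.00635), and 7 of 18 gamma targets did. Which interferon the genes of either list followed was not tested. Irgm1 of the gamma list was among the 3 genes most like Stat2 (r = 0.961) and Irf9 (r = 0.933) over the mice.

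Most sensors, receptors, kinases, feedback inhibitors and other factors did not pass. The shares of all genes tested that passed at 162 µg were 0.632% at day 28 and 1.7% at day 1. Of 18 sensors and adaptors, 2 rose at 162 µg and day 28 (median 0.24): Dhx58 (1.22, adjusted p = 0.00838) and Ifih1 (0.87, adjusted p = 0.0372), cytosolic receptors of viral RNA and themselves interferon targets. At day 1 limma called 0 of 18 (8 at an unadjusted p under 0.05). Of 9 feedback inhibitors, 2 rose at day 28, Usp18, which blocks the type I receptor (1.58, adjusted p = 0.00303), and Trim30a, a restraint on Toll-like receptor signalling (1.05, adjusted p = 0.00911), and 1 rose at day 1, the phosphatase Ptpn2 (0.63, adjusted p = 0.00352). Of 9 receptor subunits and kinases limma called 0 on either day (0 unadjusted at day 28 and 2 at day 1), and of 9 other IRF and STAT factors 0 on either day (2 and 3 unadjusted). With the slide 1 array alone, 0 sensors and 0 feedback inhibitors passed at day 28. The sensor count at day 28 was 0 without control replicate 2, 2 without 162 µg replicate 1 and 1 without any other single mouse, and the count of inhibitors was 1 without control replicate 1 or 2 or without 162 µg replicate 2. Without 162 µg replicate 3, 5 sensors, 3 inhibitors and 1 receptor subunit or kinase passed at day 1. That run kept arrays standing apart in the controls only. Without control replicate 2, 1 sensor passed at day 1.

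The interferons themselves gave no call. Of 10 interferon genes sought, 9 were on the arrays and 4 passed the filter on dim probes, and limma called 0 of these 4 at 162 µg on either day (0 at an unadjusted p under 0.05), with medians of -0.02 at day 28 and 0.03 at day 1. Ifnb1, Ifna2, Ifna4, Ifne and Ifnk were on the arrays but too dim to be tested, so no level is given for them.

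**Figure D4:**
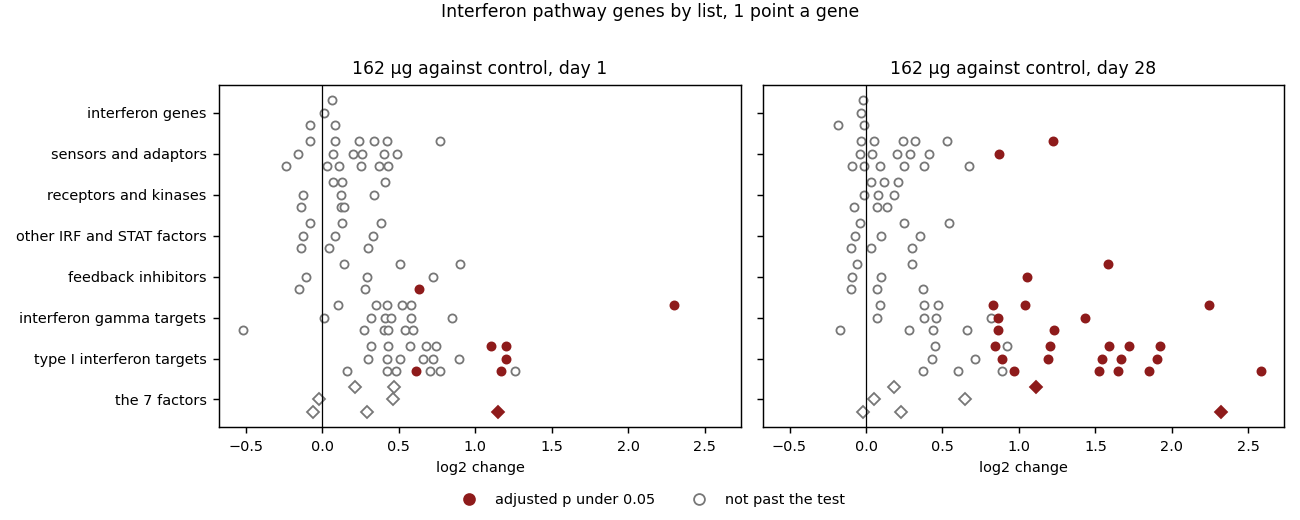
Log2 change at 162 µg against control at day 1 (left) and day 28 (right), 1 point a gene, for 7 lists of pathway genes and, as diamonds, the 7 factors. Filled points passed at an adjusted p under 0.05. At day 28 the 22 type I targets all lie right of 0 (median 1.20), while the 4 interferon genes lie close to 0 (median -0.02).

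Of 7 markers of macrophages and monocytes 1 rose on each day at 162 µg (4 at an unadjusted p under 0.05 on each day), and these were named after their values were seen: Cd68 at day 28 (0.80, adjusted p = 0.0344) and Cd14 at day 1 (0.99, adjusted p = 0.0388). The log2 of the summed Cy5 signal of the 7 was 14.85 to 15.31 at 162 µg and 13.99 to 14.79 in controls at day 28, and 14.38 to 15.18 at 162 µg and 14.04 to 14.28 in controls at day 1, so neither pair of ranges overlapped. This signal was background corrected but not normalized, so it also carries the brightness of each array (median raw Cy5 103 to 143). On the scale used elsewhere, the mean log2(lung/reference) of the 7, the ranges were 0.46 to 0.68 at 162 µg and 0.05 to 0.27 in controls at day 28, which did not overlap, and 0.32 to 0.60 at 162 µg and -0.11 to 0.37 in controls at day 1, which did. The part of this in the Irf7 and Stat2 results was not tested. Of 6 markers of plasmacytoid dendritic cells, a cell type known for constant Irf7 and strong interferon output, 0 passed by limma on either day (0 unadjusted at day 28 and 1 at day 1). Their summed signal was 14.66 to 15.34 at 162 µg, against 14.85 to 15.19 in controls at day 28. At 18 µg and day 28, where 1 of 4 mice had an array standing apart for muscle, it was 14.72 to 17.8. The sum is therefore not read as the amount of these cells. Siglech, a defining marker of these cells, was -0.08 at day 28 (adjusted p = 1).

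Over the 29 mice Irf7, Stat2 and Irf9 varied together most closely. These correlations are descriptions over mice that share dose groups, slides and a reference. For Irf7 the 3 most alike of 15198 genes were Slfn4 (r = 0.943), Ifi44 (0.935) and Lgals3bp (0.931), and Stat2 came at rank 10 (0.919) and Irf9 at rank 23 (0.887). For Stat2 they were Ifit3 (0.962), Irgm1 (0.961) and Ifit1 (0.956), and for Irf9 Usp18 (0.936), Irgm1 and Ogfr (0.933 each). The ISGF3 subunits Stat2 and Irf9 correlated at 0.931. Irf7 correlated with Irf5 at 0.632, with Irf1 at 0.511, with Irf8 at 0.257 and with Irf3 at 0.088. Irf1 correlated with Irf9 at 0.747, with Stat2 at 0.693, with Irf8 at 0.652 and with Irf3 at 0.616, and Irf3 with Irf8 at 0.601.

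The genes most like the other factors were Arrdc1, Alcam and Gpr137b for Irf1 (0.877 to 0.868), Atp13a2, Tax1bp3 and Ccn5 for Irf3 (0.833 to 0.799), Set, Cd53 and Rrp7a for Irf5 (0.840 to 0.812), and Apobr, Psmb9 and Spn for Irf8 (0.822 to 0.819). None of these 12 passed at 162 µg on either day (adjusted p = 0.424 to 0.973 at day 1 and 1 at day 28). Of the 8 genes named for Irf7, Stat2 and Irf9, 7 rose at 162 µg and day 28, for example Lgals3bp (1.79, adjusted p = 6.57e-05), and Ogfr did not pass (0.56, adjusted p = 0.0835). The correlations and these changes come from the same mice, so neither is support for the other.

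**Figure D5:**
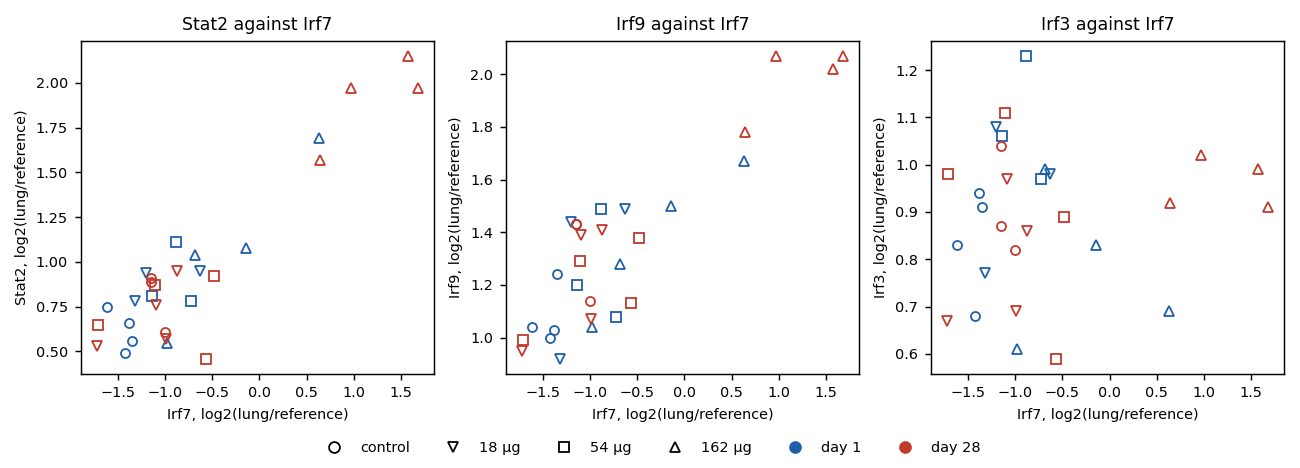
Level of Stat2 (left), Irf9 (middle) and Irf3 (right) against that of Irf7 in each of the 29 mice, as log2(lung/reference), with the shape for the dose and the colour for the day. Stat2 and Irf9 climb with Irf7 (r = 0.919 and 0.887), while Irf3 shows no such relation (r = 0.088). In the Stat2 and Irf9 panels the 4 mice at 162 µg and day 28 lie at the upper right. Close to them is 162 µg day 1 replicate 4 (Irf7 0.63, Stat2 1.69, Irf9 1.67). The lowest of the 4 for Irf7 (0.64, Stat2 1.57) is the mean of both arrays of the mouse with conflicting labels.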

How the data were processed

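Lung RNA of 29 mice was measured on 36 two-colour Agilent arrays with a common reference and no dye swap. The deposited scanner files hold median spot and background intensity in each dye, written by Agilent Feature Extraction 11.0.1.1, per the file headers. The authors also deposited a table of log2 ratios, whose normalization is not given in the sources used here (r = 0.986 to 0.997 with the values below, across the probes of an array).

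From the intensities, R 4.3.3 and limma 3.58.1 gave log2(Cy5/Cy3) after normexp background correction (offset 50) and loess within each array. Flagged outlier spots were dropped, 0 spots were saturated, and raw Cy5 intensity had a median of 103 to 143 per array. The number of mice limits the precision. Medians were used because the files hold no mean signal. A mouse on 2 arrays (7 mice) entered as the mean of both. RefSeq accessions gave symbols to 28026 of 55681 probes, through a gene table of GRCm38.p6 used for names only, and the brightest probe stood for a gene. Genes had to be above background in Cy5 in at least 3 mice of some group, on all their arrays, which left 23256. The model had 8 group means over 29 mice (21 residual and 2.9 prior degrees of freedom), and 12 two-sided comparisons were made, each with Benjamini-Hochberg adjustment over all 23256 genes. A gene passed at an adjusted p under 0.05. Groups follow the dose and time labels, and doses of a day share their controls. The test was checked on simulated data.

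Named genes were the 7 factors, the 3 genes most correlated with each factor, and up to 2 called genes of largest change per pathway list and comparison; 1 more gene of the rule is not reported here. The factors and all lists (interferon genes, sensors and adaptors, receptors and kinases, other IRF and STAT factors, feedback inhibitors, type I and gamma targets, and markers of macrophages and monocytes, plasmacytoid and conventional dendritic cells, B, T and NK cells, neutrophils, lung, skeletal muscle and squamous epithelium) were chosen with earlier results of these data known. Alternatives covered background, normalization, dim probes, the probe rule, slide, mouse, groups fitted, array weights, arrays standing apart, tissue scores, the mouse with conflicting labels (kept in day 28), the deposited table and each mouse left out. Leaving out either array of that mouse was added after the data were seen.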

Additional observations from a re-analysis of the deposited data

Results flagged for a closer look

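Among 35 combinations of factor and group with 4 mice, 3 had a mouse far from the other 3, by Dixon's gap ratio at the 95% level, and chance flags about 1 in 20. Irf5 in controls of day 1 was highest in replicate 3 (0.63, next 0.34). Irf9 in the same group was highest in the same mouse (1.24, next 1.04). Irf8 at 18 µg and day 28 was lowest in replicate 1 (2.27, next 2.63), a mouse with an array standing apart for muscle.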

How the results depend on the processing

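At 162 µg and day 1 the number of factors called was 1, and it was 0 with median centring, no filter on dim probes, the slide as a block, all arrays with the mouse as random block, only the groups compared in the fit, the tissue covariates, the deposited value table and without the slide 5 array of the mouse with conflicting labels. It was 4 with array quality weights (Irf7, Irf5, Irf9 and Stat2) and 0 to 2 without 1 mouse. In the settings where Irf7 lost this call its adjusted p was 0.0526 to 0.259. At 162 µg and day 28 it was 2, and 0 without that slide 5 array, while leaving out 1 mouse gave 2 each time. Against 54 µg at day 28 it was 3, and 1 without the arrays standing apart, while leaving out 1 mouse gave 3 each time; Irf9 also lost its call with median centring (1.0, adjusted p = 0.0787). Array weights called 2 factors for 162 µg against 54 µg at day 1 (Irf7 and Irf3) and 2 for the day difference at 54 µg (Irf1 and Irf8), both 0 otherwise. Irf9 at 162 µg and day 28 passed by limma in 7 of 15 settings, such as the slide block (0.62, adjusted p = 0.0427). With 1 mouse left out it passed in 0 of 7 runs (adjusted p = 0.0547 to 0.464). Over the factors and alternatives there were 2016 values: 1959 kept their direction and call or stayed within the spread, 21 lost a call, 17 gained one, 19 uncalled changes turned sign and moved by more than the SD, and 0 called values turned sign.

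The number of all genes called moved more: for 162 µg at day 1 it was 395, and 38 with only the groups compared, 169 with median centring (99.4% up, against 88.6%) and 3160 with array weights; for day 28 it was 147, and 52 without the slide 5 array and 597 with array weights; for 162 µg against 54 µg at day 28 it was 237, and 52 with only the groups compared and 3498 with array weights. Without 1 mouse these were 194 to 821, 65 to 127 and 101 to 408. With median centring the median change of all genes lay between -0.317 and 0.233 over the comparisons. No paired analysis was possible because the samples carry running numbers and no replicate number shared between groups; the slide, which holds several groups, was run as a block instead. Signal over background limited the interferon genes.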

Other observations

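Markers of other immune cells showed no call beside the factors. At 162 µg, limma called 0 of 5 conventional dendritic cell markers on either day (0 at an unadjusted p under 0.05 at day 28 and 3 at day 1), 0 of 6 B cell markers (0 on both days), 0 of 8 T and NK cell markers (1 at day 28 and 0 at day 1), 0 of 6 neutrophil markers (0 and 3) and 0 of 10 markers of lung epithelium and endothelium (0 and 2). Median log2 changes at day 28 were -0.08, -0.06, -0.16, 0.08 and -0.01, and at day 1 they were 0.16, -0.09, 0.12, 0.45 and -0.18. Of 7 squamous epithelium markers and 11 skeletal muscle markers 0 passed on either day (0 unadjusted), with medians of -0.08 and 0.01 at day 28 and of -0.78 and -2.55 at day 1. Xcr1, a defining marker of conventional dendritic cells, was above background on no array.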
